A study of Mus musculus with 2 samples.

Results

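Marco Mrc1 macrophages of heme-exposed mouse bone marrow cultures were chosen cell by cell from their transcript counts. A cell of the heme library was included when it carried 1 hashtag of culture day 4, 5 or 7, 500 or more detected genes and under 15% mitochondrial UMIs (unique molecular identifiers, each standing for 1 captured transcript). It also had to hold 3 or more UMIs of Marco, 1 or more of Mrc1 and under 2% of its UMIs in S100a8, an abundant neutrophil transcript. Of the 8436 kept heme cells of these days, 1159 met this rule, 28 on day 4, 80 on day 5 and 1051 on day 7, and both libraries together held 31339 barcodes. Since measured levels of Marco, Mrc1 and S100a8 chose the cells, the values of these 3 genes are descriptions only.

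The cultures were grown with GM-CSF (20 ng/ml) from Lin- bone marrow progenitors of C57BL/6 mice aged 8 to 10 weeks. On culture day 3 the heme group received heme-albumin at 300 µM and the control group albumin. Each group was 1 library read from the 3′ ends of transcripts, pooled from 5 cultures that antibody-borne DNA hashtags marked as days 0, 3, 4, 5 and 7, of which days 0 and 3 precede the addition. Days are given as the hashtags name them, since the exposure times listed in the series' design text hold none that matches day 5. How many mice stood behind each culture is not given in the sources used here. With 1 library per group, library and heme cannot be told apart, no test across cultures was possible, and all exact 95% intervals given here cover counting error only.

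As background, Marco encodes a scavenger receptor that binds bacteria and modified lipoproteins, and Mrc1 encodes the mannose receptor CD206. Spic encodes a transcription factor that red pulp macrophages of the spleen need, cells that engulf aged erythrocytes. In such cells, SLC48A1 moves heme out of phagolysosomes, heme oxygenase 1 (Hmox1) splits it, ferritin (Fth1, Ftl1) stores the freed iron and ferroportin (Slc40a1) exports it.

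The kept cells of a culture numbered 1646 to 3351, and 112 barcodes occurred in both libraries, among them those of 2 members. Heme cells of day 0, which hold no member, carried Marco at 7.71 CPM (UMIs of a gene per 1000000 gene UMIs), Spic at 1.48, Igf1 at 0.682, Hmox1 at 124 and Slc40a1 at 57.6 CPM. Control cells of day 0 carried the same genes at 0.0525, 0.262, 0.157, 1.84 and 33.3 CPM. All 5 values were larger in the heme library, although day 0 precedes the addition of heme, and how much of this is free RNA of the pool was not tested. At least 1 Marco UMI was found in 9.69% of these day 0 cells (median 10053 UMIs per cell) against 0.0608% of control day 0 cells (median 9920 UMIs). Of the members, 16 of 28, 57 of 80 and 366 of 1051 had more than 5000 detected genes on days 4, 5 and 7. Their own day's hashtag held a median of 93.5%, 93.2% and 91.0% of hashtag counts, and the day 7 hashtag a median of 1.17% in day 4 members. Such shares cannot show doublets within 1 day. Median hashtag counts per cell were 2433.5, 2270.5 and 1813 in members and 1037, 1104 and 860 in the other kept cells, which was not followed further. On day 4, heme cells outside the rule carried 8.72 CPM of Marco, beside 7.71 CPM on day 0, whereas members carried 203 CPM. The rule itself sets the gap between members and the other cells in Marco, so nothing is read from it.

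The macrophage label was checked against marker genes. Of 16 genes of macrophage identity, 13 reached 20 CPM in the members of day 4 and 14 in those of days 5 and 7, including Csf1r, the receptor of M-CSF, at 169, 227 and 246 CPM and Adgre1, which encodes F4/80, at 121, 135 and 219 CPM. Marco-negative Csf1r cells and control Mrc1 cells of day 4 each had 12 of the 16 at this level, so the count alone does not set the members apart. By the same limit, day 4 members held 14 of 20 dendritic cell, 11 of 18 neutrophil and 7 of 12 monocyte genes. In day 7 members these counts were 6, 13 and 7. Spic and Hmox1, which the rule did not use, were present on each day. Igf1 was not a marker of the day 4 cells, where 3 UMIs in 28 cells gave 3.67 CPM. Several genes of resident red pulp or tissue macrophages were at or near 0 even on day 7. The adhesion molecule gene Vcam1 had a UMI in 7 of 1051 cells, Cd5l in 3, Siglec1 in 33 and the complement gene C1qa in 21.

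The share of Marco Mrc1 macrophages among kept heme cells was 0.934% on day 4, with an interval of 0.621% to 1.35%. It was 3.00% on day 5 (2.39% to 3.72%) and 37.9% on day 7 (36.1% to 39.8%). Before heme, 0 of 1827 heme cells of day 0, which allows a share of up to 0.164%, and 8 of 3351 of day 3 met the same conditions. In the control library, 0 of 1646, 0 of 2089, 2 of 2263, 7 of 2601 and 13 of 3008 cells of days 0, 3, 4, 5 and 7 met them. The intervals of the 3 heme days do not overlap one another, and that of heme day 4 overlaps that of control day 7 (0.230% to 0.738%). Other thresholds moved these shares. With each cell thinned to 5000 UMIs they were 0.156%, 0.469% and 24.1% on days 4, 5 and 7, and with 5 or more Marco UMIs 0.467%, 1.58% and 34.1%. Members were deeper than the other kept cells, at medians of 22764, 30321 and 20599 UMIs over the 3 days against 11348, 11927 and 14128. On day 7 the share was 9.58% among cells under 10000 UMIs, 45.2% from there to 20000, 51.5% from 20000 to 40000 and 38.7% above.

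**Figure D1:**
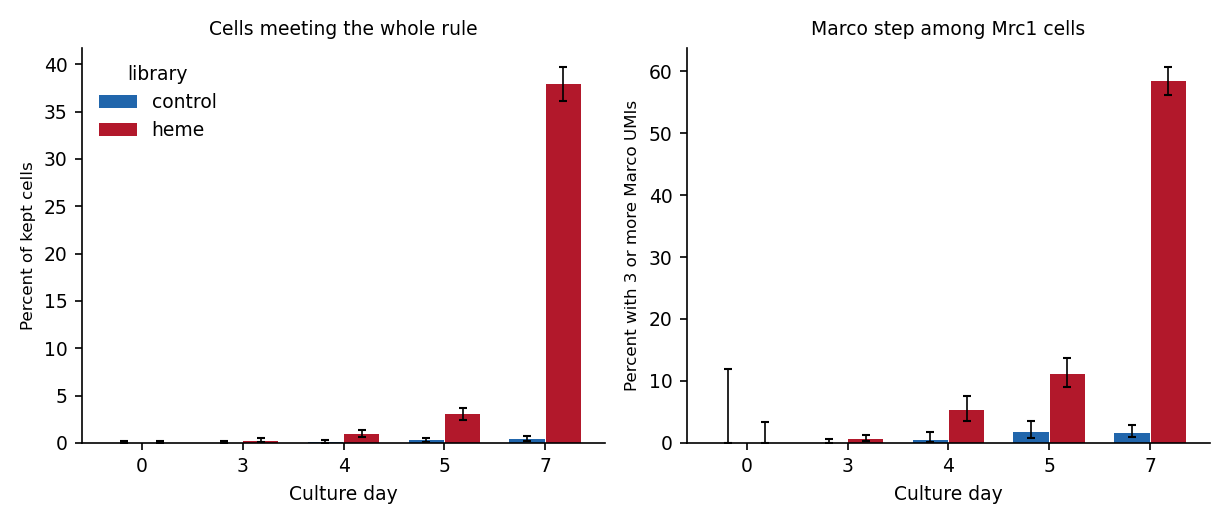
Percent of kept cells that met the whole rule (left) and percent of Mrc1 cells with low S100a8 that held 3 or more Marco UMIs (right), by culture day, for the control and heme libraries, with exact 95% binomial intervals as error bars. Heme bars stand at 0.934%, 3.00% and 37.9% on days 4, 5 and 7 on the left, and at 5.26%, 11.2% and 58.5% on the right.

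The Marco step of the rule was also followed on its own. Among heme cells with Mrc1 and low S100a8, 3 or more Marco UMIs were held by 28 of 532 on day 4, 80 of 717 on day 5 and 1051 of 1798 on day 7. In the control library the same step was passed by 2 of 415, 7 of 398 and 13 of 783 cells. Marco UMIs per member had medians of 4.5, 5 and 17 on the 3 days, with a lowest value of 3 each time and highest values of 20, 63 and 179. Day 4 members thus lay near the threshold, with 6 of 28 at exactly 3 UMIs, and 71.0% of the day 7 members held 10 or more. Just inside the threshold on day 7 stood 50 cells with 3 Marco UMIs and just outside 81 with 2. Between these, Hmox1 was 5137 and 5609 CPM, Spic 123 and 103 CPM, Igf1 101 and 75.6 CPM, and H2-Ab1 443 and 880 CPM.

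The position of each marker is given from the GENCODE M21 annotation of GRCm38. Marco lies at chr1:120474538-120505024 on the minus strand, Mrc1 at chr2:14229392-14332057 on the plus strand, Spic at chr10:88674772-88685015 on the minus strand, Hmox1 at chr8:75093621-75100589 on the plus strand and Igf1 at chr10:87858265-87937042 on the plus strand. All are annotated as protein-coding.

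Over days 4, 5 and 7 the members carried heme oxygenase transcripts in every cell, and on day 7 more of the transcripts for iron export and for insulin-like growth factor 1. Hmox1 per cell had medians of 2807, 4575 and 6564 CPM on the 3 days, with ranges of 1130 to 8693, 527 to 8553 and 1317 to 19533 CPM. The summed levels were 3341, 4588 and 6418 CPM, a day 7 to day 4 ratio of 1.92 (1.85 to 2.00) that did not pass the 2-fold limit, and the ranges of single cells overlapped widely. Spic had a UMI in 19 of 28, 62 of 80 and 894 of 1051 members, and its summed levels of 74.6, 85.9 and 140 CPM gave a ratio of 1.88 (1.46 to 2.47), which did not pass either. Slc40a1 rose, with medians per cell of 50.7, 68.4 and 454 CPM. Its summed levels were 127, 158 and 524 CPM, 4.12-fold higher on day 7 than on day 4 (3.40 to 5.04). On day 4 the heme cells outside the rule held 159 CPM of Slc40a1, so the members of that day did not stand above their own culture in this gene. Igf1, which encodes a growth factor, also rose, with a UMI in 3 of 28, 26 of 80 and 670 of 1051 members and summed levels of 3.67, 29.4 and 152 CPM. Its ratio of 41.4 (14.1 to 201) rests on 3 UMIs on day 4, while against day 5 it was 5.16 (4.14 to 6.52). Heme cells outside the rule also had higher summed levels of all these genes on day 7 than on day 4. In them Hmox1 went from 1920 to 4168.5 CPM, Spic from 25.4 to 54.7, Slc40a1 from 159 to 335 and Igf1 from 2.32 to 40.7 CPM. Their S100a8 went from 56283 to 12893 CPM, so the cell types in that set changed as well. How much of its rise came from that was not tested, and whether the rise was particular to members is not read from it.

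**Figure D2:**
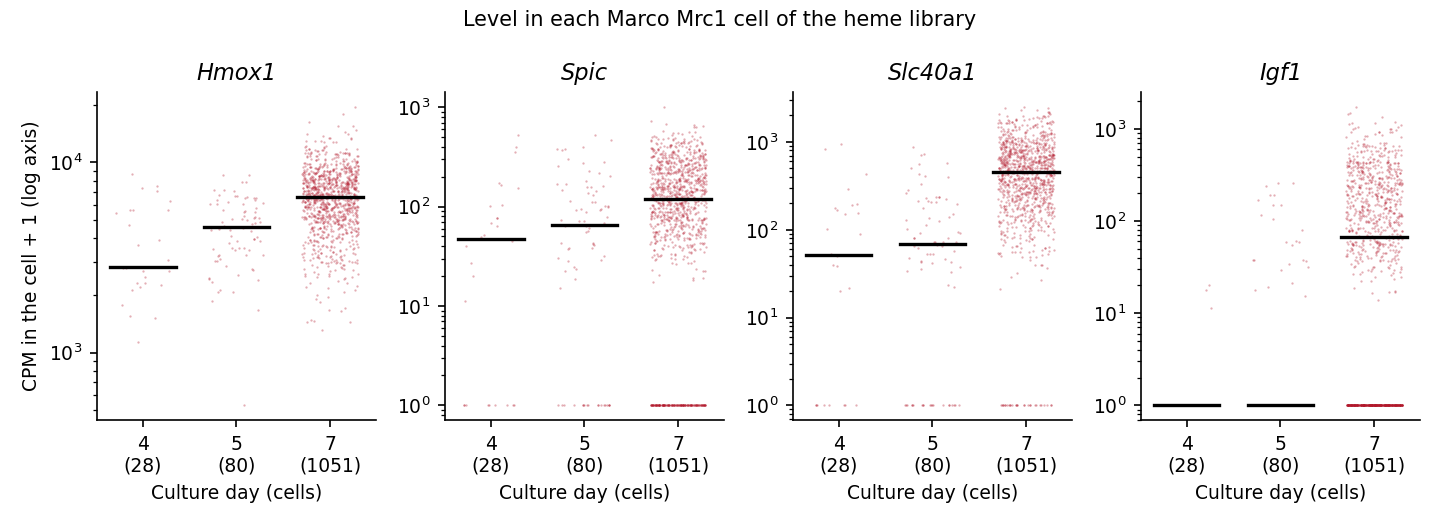
Level of Hmox1, Spic, Slc40a1 and Igf1 in each Marco Mrc1 macrophage of the heme library on culture days 4, 5 and 7 (28, 80 and 1051 cells), in CPM plus 1 on a log axis, with 1 point per cell and the median as a bar. Cells without a UMI lie at 1, where the Igf1 medians of days 4 and 5 stand, and the Slc40a1 median of day 7 lies at 454 CPM.

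Across all genes, a gene counted as higher or lower when the 95% interval of its ratio of summed CPM lay wholly beyond 2-fold, among genes with 50 or more UMIs in both sums together. Between day 7 and day 4 members, 10602 genes were compared, of which 51 (0.481%) were higher and 104 (0.981%) lower on day 7. Of the 51 and 104 calls together, 32.9% were higher, and this share was 43.5% with edgeR's TMM factors and 41.4% with DESeq2 size factors. Besides Igf1 and Slc40a1, the genes that rose most included the surface antigen gene Ly6a (59.9 to 400 CPM, 6.69-fold, 5.05 to 9.04), the podoplanin gene Pdpn, Emp1 (17.1 to 111 CPM) and the metalloproteinase inhibitor gene Timp2 (26.9 to 140 CPM, 5.22-fold). Pmp22, a myelin protein gene, rested on 1 UMI on day 4 and was 7.31-fold higher on day 7 than on day 5 (5.24 to 10.5). Cd63, a tetraspanin of late endosomes, rose from 396 to 1097 CPM (2.77-fold, 2.48 to 3.10), and Trem2, a lipid-sensing receptor gene, from 73.3 to 236 CPM.

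By list, 1 of 22 heme and iron genes (Slc40a1), 1 of 31 oxidant response genes (Gsta3) and 1 of 9 red pulp macrophage genes (Slc40a1) were higher on day 7, and none of these lists held a gene that was lower. Their median log2 ratios were 0.23, 0.02 and 0.88, beside -0.07 over all genes compared. The ferritin transcripts, which were not called, stood at 48942, 62414 and 65558 CPM for Fth1 and at 16646, 19822 and 23192 CPM for Ftl1 on days 4, 5 and 7. The 24 cell cycle genes, 25 genes of the lysosome and cathepsins and 21 genes of oxidative phosphorylation had no call in either direction. Over all genes compared only 0.481% were higher and 0.981% lower, so nothing is read from the absence of calls in lists of this size.

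Some monocyte genes were among those lower on day 7. The 12 genes of the monocyte list summed to 2932.5 CPM on day 4 and 1717.5 CPM on day 7. Ly6c2, Hp and Vcan carried this fall, and the other genes of the list together did not fall. Ly6c2, the gene of a surface antigen of inflammatory monocytes, fell from a summed 1277 CPM on day 4 through 861 CPM on day 5 to 217 CPM, a 5.89-fold difference, and its median per cell went from 1296 through 814 to 129 CPM. Hp, which encodes haptoglobin, fell from 244 through 136 to 42.3 CPM, and Vcan from 350 to 147 CPM. In the same direction went Chil3 (356 to 124 CPM), a chitinase-like protein gene of myeloid cells, and the cytokine genes Il1a (80.7 to 23.3 CPM) and Il1b (214 to 73.8 CPM). Il1b stood at 50.4 CPM on day 5, below its day 7 level. The UMIs of these genes were found in 19 or more of the 28 day 4 cells. Even so, 3 cells held 49.5% of the day 4 UMIs of Hp, 49.1% of those of Il1b and 45.5% of those of Il1a.

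Most other lower genes rested on few day 4 cells. Of 43 listed or named genes that were lower on day 7, 32 had 50% or more of their day 4 UMIs in 3 cells. The dendritic cell list held 9 lower genes of 15 compared, but the cell with most UMIs of the gene carried 93.4% of the day 4 UMIs of Ccr7, the chemokine receptor gene of migrating dendritic cells, 91.0% of those of Ccl5 and 87.3% of those of Ccl22. Without the 5% of members with most UMIs, Ccr7 turned to the opposite direction, at a log2 ratio of 1.10. The MHC class II list held 4 lower genes of 10, and 3 cells carried 90.0% of the day 4 UMIs of H2-Ab1. When cells with more than 5000 genes or 30% ribosomal UMIs were left out, 12 day 4 members remained and H2-Ab1 turned to a log2 ratio of 0.73. The MHC class II median, -1.18 on the log2 scale, turned positive under 2 of the alternatives. The dendritic cell median of -3.17 kept its sign under every alternative run but moved between -3.29 and -0.50.

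Between day 7 and day 5 members, 41 of 10691 genes were higher (0.384%) and 41 lower (0.384%). Higher were Igf1, Slc40a1 (3.31-fold, 3.01 to 3.65), the efferocytosis receptor gene Mertk (7.61 to 31.8 CPM) and its ligand gene Gas6 (2.90 to 20.6 CPM), the metallothionein gene Mt2 (88.5 to 270 CPM) and Bhlhe41, a transcription factor gene (13.1 to 46.3 CPM). Lower were Ly6c2 (3.97-fold), Ccl17 (429 to 109 CPM), the fibronectin gene Fn1 (30.8 to 5.22 CPM) and the Fc receptor gene Fcgr1 (22.5 to 7.54 CPM). C1qa also passed, from 12.7 to 3.31 CPM, with 91.4% of its day 5 UMIs in 1 of 80 cells.

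Cells of the control culture that met the rule without its Marco step, 783 on day 7 with a median of 16398 UMIs, were the nearest counterpart in the other library. Against them, the members of day 7 carried far more transcripts for heme breakdown, iron storage and export and for the oxidant response, and fewer for antigen presentation, C1q and interferon-stimulated genes. Of 11187 genes compared, 708 were higher (6.33%) and 422 lower (3.77%). The median log2 ratio over all these genes was 0.24, and it was 0.02 with TMM and 0.01 with DESeq2 factors, under which the share of calls that were higher went from 62.7% to 47.5% and 46.8%. When the heme cells were also chosen without the Marco step (1798 cells of day 7), 686 genes were higher and 386 lower than in the control cells. The size of the difference was thus not particular to the members. The 5 marker genes and the called genes that were listed or named, 165 in all, were recomputed under the alternatives, and 0 of them changed sign. Of 26 list medians 6 did, all under 1 in size on the log2 scale, and none of those 6 is given below. The lists share some members, such as Hmox1 and Slc40a1 in the first 2 described here.

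Of the red pulp macrophage list, 7 of 10 genes compared were higher and 0 lower, with a median log2 ratio of 2.11. Spic stood at 140 CPM in the members and at 0.138 CPM, from 2 UMIs, in the control cells, a ratio of 1019 (282 to 8414). The ferroportin gene Slc40a1 stood at 524 and 1.79 CPM, a ratio of 292 (199 to 448), and Treml4, a receptor gene of splenic macrophages and dendritic cells, at 96.5 and 0.758 CPM, a ratio of 127 (71.0 to 255). Thinned to 5000 UMIs per cell, Spic had a UMI in 523 of 1045 members and in 0% of the control cells, and Slc40a1 in 80.9% and 0.777%.

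Of the heme and iron list, 10 of 23 genes were higher and 1 lower, with a median of 0.90. Hmox1 stood at 6418 against 142 CPM, a ratio of 45.4 (43.4 to 47.4), and heme cells of day 0 held 124 CPM in the members' own library. The heme transporter gene Slc48a1 was at 471 and 96.7 CPM (4.87-fold, 4.61 to 5.15). The ferritin genes Fth1 and Ftl1 were 2.66-fold and 2.95-fold higher, and both have pseudogene copies with which reads may be shared. Also higher were Slc11a1, the gene of the phagosomal metal transporter NRAMP1 (80.1 and 12.6 CPM), Ncoa4, which delivers ferritin to lysosomes, and Bach1, the gene of a heme-sensing repressor. The lower gene was Cp, which encodes the ferroxidase ceruloplasmin (0.497 and 5.79 CPM). Blvrb, a biliverdin reductase gene, reached 588 and 315 CPM and did not pass the limit.

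NRF2 is a transcription factor that accumulates when its inhibitor KEAP1 is modified by oxidants or electrophiles, and it binds antioxidant response elements near genes of glutathione, thioredoxin and NADPH metabolism. Of 31 listed NRF2 and oxidant response genes, 16 were higher in the members and 1 lower, with a median log2 ratio of 1.27. Gclm, which encodes the modifier subunit of glutamate-cysteine ligase, stood at 1616 against 99.8 CPM (16.2-fold, 15.4 to 17.1). Its partner Gclc, the catalytic subunit gene, stood at 99.7 and 20.9 CPM, and Slc7a11, the cystine transporter gene, at 491 and 125 CPM. The quinone reductase gene Nqo1 was 9.93-fold higher (8.46 to 11.7), catalase (Cat) 6.40-fold, peroxiredoxin 1 (Prdx1) 3.76-fold and the glutathione transferase gene Gstm1 10.2-fold. Me1, the gene of malic enzyme, a source of NADPH, was at 79.3 against 1.17 CPM, and Gsta3 at 49.1 against 0.482 CPM. The lower gene was Gpx1, a glutathione peroxidase gene (319 and 1426 CPM).

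Promoter windows of 250 bases before to 50 bases after each start site, from RefSeq on GRCm38.p6, were searched on both strands for the core of the antioxidant response element, TGACNNNGC. It occurred in 12.4% of all 32851 promoters, or at 14.0% of 27025 genes. Of the 16 higher oxidant response genes, 13 were matched by symbol and 8 of these held it. Of the 15 compared genes of the list that were not higher, 14 were matched and 3 held it. Of the heme and iron list, the motif was held by 2 of 7 matched higher genes (Lrp1 and Ncoa4) and by 2 of 11 matched genes that were not higher (Blvra and Flvcr1). The 8 windows of 29 bases follow 5′ to 3′, shown because all belong to the higher genes of the list, with the motif in capitals. Letters were read on the strand named, and a match describes the letters, not a bound site.
Gclm (chr3:122245413-122245441, minus, 134 bases before the start): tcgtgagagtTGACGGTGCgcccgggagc
Srxn1 (chr2:152105542-152105570, minus, 29 bases after the start): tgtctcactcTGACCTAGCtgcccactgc
Txnrd1 (chr10:82859104-82859132, minus, 92 bases before the start): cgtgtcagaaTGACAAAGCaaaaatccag
Prdx1 (chr4:116685456-116685484, minus, 133 bases before the start): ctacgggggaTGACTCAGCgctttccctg
Me1 (chr9:86695902-86695930, minus, 6 bases before the start): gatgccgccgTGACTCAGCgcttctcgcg
Gsta3 (chr1:21240454-21240482, plus, 121 bases before the start): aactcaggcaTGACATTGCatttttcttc
Pgd (chr4:149166061-149166089, minus, 4 bases after the start): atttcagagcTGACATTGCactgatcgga
Sod1 (chr16:90220696-90220724, minus, 56 bases before the start): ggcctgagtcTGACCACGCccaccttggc
Srxn1, the sulfiredoxin gene, was 4.62-fold higher in the members (4.20 to 5.08), and Txnrd1, the gene of thioredoxin reductase 1, was 2.89-fold higher. Sod1, the gene of cytosolic superoxide dismutase, was 3.91-fold higher, and Pgd, a gene of the pentose phosphate pathway, 2.41-fold. Of the marker genes Marco, Spic, Mrc1, Hmox1 and Igf1, 4 were matched and 0 held the motif in this window.

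Antigen presentation genes were lower in the members. Of the MHC class II list, 9 of 10 were lower and 0 higher, with a median log2 ratio of -2.0. H2-Ab1 stood at 342 against 1445 CPM (4.23-fold lower) and the invariant chain gene Cd74 at 2142 against 7179 CPM (3.35-fold lower). Of the dendritic cell list, 12 of 18 were lower (median -2.05), among them the chemokine genes Ccl17 (109 and 4459 CPM, 40.8-fold lower) and Ccl22. The 20 genes of that list summed to 454 CPM in the members and 6332.5 CPM in the control Mrc1 cells. Ccr7 or Fscn1 had a UMI in 1.82% and 4.66% of the thinned cells. The part of dendritic cells among the control cells in the differences of this paragraph was not tested. Of the interferon response list, 17 of 24 were lower (median -2.17), with Isg15, a ubiquitin-like protein gene, at 5.51 and 37.5 CPM and Irf7 at 2.24 and 11.2 CPM. Of the complement and Fc list, 5 of 13 were lower, and C1qb was at 7.00 against 254 CPM (36.3-fold lower). The monocyte and tissue repair genes Fn1 (5.22 and 1093 CPM) and Arg1, which encodes arginase 1 (4.35 and 425 CPM), were 209-fold and 97.8-fold lower. Mucl1 had 0 UMIs in the members, which allows up to 0.124 CPM, against 54.7 CPM.

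Some genes of macrophage identity diverged. Adgre1 (3.82-fold, 3.55 to 4.12), Maf (4.30-fold) and the fractalkine receptor gene Cx3cr1 (7.41-fold, 6.13 to 9.02) were higher in the members, and Fcgr1 (7.54 and 79.6 CPM) and Cd14 were lower. Of the growth factor and matrix list, 4 of 18 were higher, with Igf1 at 152 and 24.5 CPM, and 7 lower, with Vegfa at 1.95 and 47.3 CPM. Of the lipid list, 5 of 20 were higher, including the oxysterol receptor gene Nr1h3 and the lipid droplet gene Plin2 (374 and 156 CPM), and 4 lower, including the cholesterol exporter gene Abca1 (1.70 and 38.6 CPM). Of the metallothionein and heat shock list, 4 of 10 were higher (Mt1, Mt2, Mt3 and Hsph1), with Mt1 at 2095 and 759 CPM. The lists of cell cycle and oxidative phosphorylation genes, 24 and 21 genes, had no call, beside 6.33% higher and 3.77% lower over all genes compared.

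**Figure D3:**
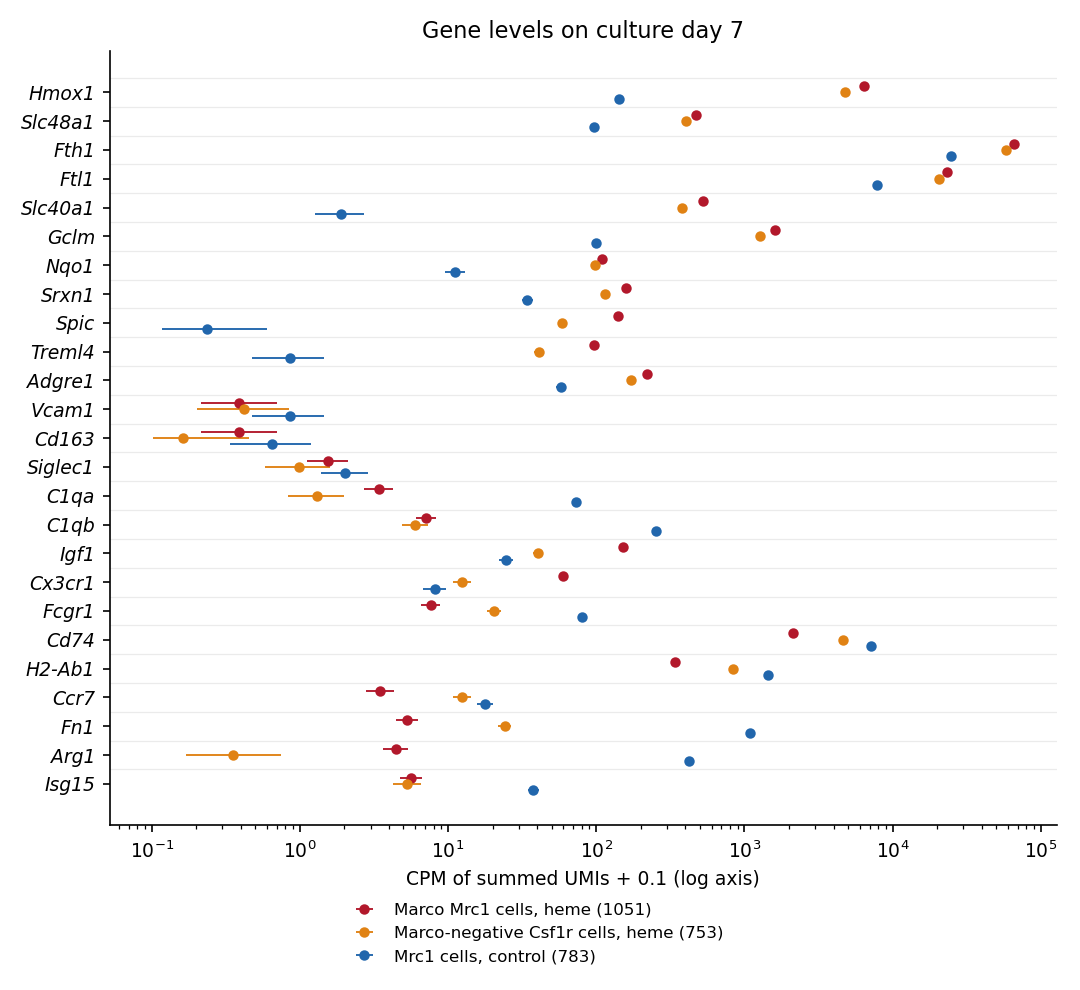
Summed level of 25 genes in CPM plus 0.1 on a log axis on culture day 7, in Marco Mrc1 macrophages (red, 1051 cells), Marco-negative Csf1r cells of the heme culture (orange, 753 cells) and Mrc1 cells of the control culture (blue, 783 cells), with exact 95% Poisson intervals as bars where they exceed the point. The heme groups lie together for Hmox1, ferritin and Gclm, far above the control cells for Hmox1 and Gclm and less far for ferritin. Spic, Igf1 and Cx3cr1 also separate the heme groups.

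The members of days 4 and 5 were set against control Mrc1 cells of their own day. Against 415 control Mrc1 cells of day 4, 161 of 8897 genes were higher (1.81%) and 44 lower (0.495%), and against 398 of day 5, 253 of 9455 were higher (2.68%) and 175 lower (1.85%). Of the red pulp list 5 of 7 genes were higher on day 4 and 6 of 9 on day 5. The heme and iron list had 7 of 22 and 9 of 23 higher, and the oxidant response list 12 of 29 and 15 of 31. The ratio of Hmox1 was 27.5 (25.6 to 29.5) on day 4 and 46.4 (43.4 to 49.6) on day 5, and that of Spic 80.4 (38.4 to 195) and 163 (68.8 to 506), resting on 8 and 5 UMIs in the control cells. MHC class II genes were lower in 2 of 9 on day 4 and in 6 of 10 on day 5. Other lists differed between the days. Of the dendritic cell list, 4 of 13 genes were higher on day 4 (Ccr7, Ccl22, Il4i1 and Ccl5) and 2 lower (Cd209a and Mgl2), while on day 5 none of 15 was higher and 10 were lower. Of the interferon response list, 1 of 16 genes was lower on day 4 and 13 of 23 on day 5. Of the complement and Fc list, 1 of 11 was higher on day 4 (C5ar1) and 0 lower, and on day 5 2 of 12 were higher (C3ar1 and C5ar1) and 2 lower (C1qb and Fcgr1). Of the 28 day 4 members, the cell with most UMIs of the gene held 93.4% for Ccr7, 91.0% for Ccl5 and 87.3% for Ccl22. For Il4i1, H2-Ab1 and H2-Eb1, 3 cells held 100%, 90.0% and 94.8%. The day 4 counts of the dendritic cell and MHC class II lists thus rest on few cells. These differences between days were not tested. Against control cells chosen instead by Arg1 and Fn1 on day 7 (330 cells with a median of 14628 UMIs), 565 of 10870 genes were higher (5.2%) and 365 lower (3.36%), with 6 of 9 red pulp, 7 of 22 heme and iron and 16 of 31 oxidant response genes higher. Spic had 0 UMIs in those cells, which allows up to 0.524 CPM. Of the glycolysis list, 7 of 17 genes, among them Gapdh (2.59-fold) and Hk2, were lower in the members than in these Arg1 Fn1 cells, and 1 of 17 was lower than in the control Mrc1 cells.

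Within the heme culture of day 7, 753 cells with Csf1r, no Marco UMI and low S100a8 were set against the members. Of 11247 genes compared, 41 were higher in the members (0.365%) and 138 lower (1.23%). Of the heme and iron list 0 of 22 and of the oxidant response list 1 of 31 (Gsta3) were called, with Hmox1 at 6418 and 4743 CPM (1.35-fold, 1.34 to 1.37) and Fth1 at 65558 and 58243 CPM. These counts lie near the share called over all genes, so nothing is read from them. Marco itself chose both sides, so these values describe how the sides differ and are no test.

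The genes higher in the members than in their Marco-negative neighbours included transcription factor genes, a growth factor and receptors of macrophages. Cx3cr1 stood at 59.7 against 12.4 CPM (4.82-fold, 4.15 to 5.63), Igf1 at 152 against 40.6 CPM (3.74-fold, 3.44 to 4.07), Spic at 140 against 59.0 CPM (2.38-fold, 2.21 to 2.56) and Treml4 at 96.5 against 40.8 CPM. The transcription factor gene Maf went the same way (50.7 and 19.9 CPM). So did Gas6, the scavenger receptor gene Stab1 (10.4 and 3.36 CPM), the platelet-derived growth factor gene Pdgfc, the cathepsin gene Ctsk, the arginase 2 gene Arg2 (54.6 and 20.3 CPM) and Ch25h, the gene of cholesterol 25-hydroxylase (72.5 and 24.6 CPM).

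Lower in the members were Rbp4, which encodes a retinol carrier (1.62 and 84.4 CPM, 52.2-fold), Cyp1b1 (3.73 and 52.8 CPM), Cdkn2a, the gene of a cell cycle inhibitor (7.83 and 63.0 CPM), and Thbs1, which encodes thrombospondin 1 (138 and 506 CPM, 3.67-fold). The genes of the scavenger and efferocytosis list, which also holds ligand genes such as Gas6, went both ways. Of 17, 4 were higher (Marco and Mrc1 from the rule, Stab1 and Gas6) and 4 lower (Cd36, Mfge8, Olr1 and Colec12). Cd36, a fatty acid and lipoprotein receptor gene, was at 152 against 420 CPM. Of the MHC class II list 5 of 10 and of the dendritic cell list 8 of 17 were lower, with H2-Ab1 at 342 against 835 CPM (2.44-fold) and Ccl17 at 109 against 360 CPM. The summed level of the 20 dendritic cell genes was 454 CPM in the members and 995 CPM in the Marco-negative cells, and its part in the other differences was not tested.

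On day 5, 32 of 10765 genes were higher in the members than in 775 Marco-negative cells (0.297%) and 97 lower (0.901%). Spic (2.94-fold, 2.53 to 3.41), Cx3cr1 (5.73-fold) and Stab1 were again higher, and H2-Ab1 (3.12-fold), Cd74, Cd36 and Ccl17 lower. The proliferation genes Mki67 (2.30-fold, 2.10 to 2.53), Nusap1, Prc1 and Hist1h1b were higher on that day, whereas on day 7 the Mki67 ratio was 1.16 (1.09 to 1.23). Of the heme and iron list 0 of 22 and of the oxidant response list 0 of 31 were called on that day. On day 4, 5 of 10102 genes were higher than in 551 such cells (0.0495%) and 13 lower (0.129%). The 5 were Marco, Cstdc4, Ccr7, Ccl5 and Il1a, of which Ccr7 and Ccl5 came largely from 1 cell each, and the 13 included Ptx3, Cd36, Mmp12, Gpnmb and Isg15. Spic (1.44, 1.09 to 1.87), Hmox1 (0.979, 0.942 to 1.02) and Igf1 (0.815, 0.164 to 2.49) did not pass on day 4.

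**Figure D4:**
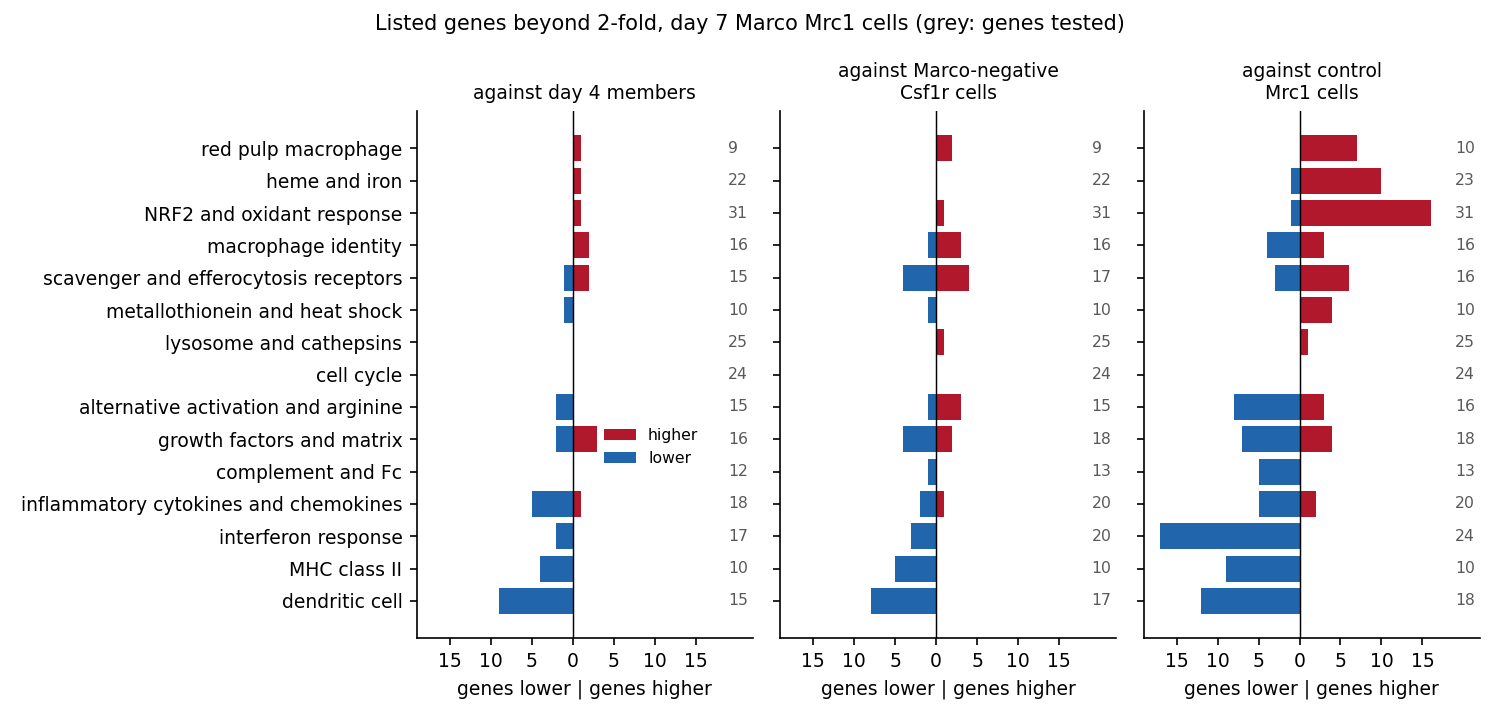
Number of genes of 15 lists that were higher (red, to the right) or lower (blue, to the left) in day 7 Marco Mrc1 macrophages, with the genes compared in grey, against day 4 members, Marco-negative Csf1r cells of day 7 and control Mrc1 cells of day 7. The heme, oxidant response and interferon lists have most calls against the control cells (10 of 23, 16 of 31 and 17 of 24) and at most 3 calls each against the Marco-negative cells.

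Values also moved with the number of Marco UMIs below and above the threshold. Day 7 heme cells with Mrc1 and low S100a8 were thinned to 5000 UMIs and set in 5 bins, with 734 cells without a Marco UMI, 334 with 1 to 2, 295 with 3 to 5, 247 with 6 to 9 and 170 with 10 or more. From the first bin to the last, Igf1 went through 62.4, 101, 139, 197 and 213 CPM and Maf through 19.9, 35.9, 46.1, 65.6 and 102 CPM. Slc40a1 went through 385, 464, 520, 566 and 756 CPM, and Hmox1 through 5364, 5891, 6696, 7049 and 7578 CPM. Each of these 4 genes was at a higher value in every bin than in the one before, with overlapping intervals of some neighbouring bins for Igf1, Maf and Slc40a1. Spic was 88.8 CPM without Marco (79.4 to 99.0) and between 139 and 166 CPM in the other bins, whose intervals overlapped. Thbs1 went from 394 to 90.6 CPM, H2-Ab1 from 431 to 259 CPM and Cd36 from 267 to 112 CPM, each with its lowest value in a bin before the last. Csf1r lay between 222 and 288 CPM and Mki67 between 89.4 and 113 CPM.

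**Figure D5:**
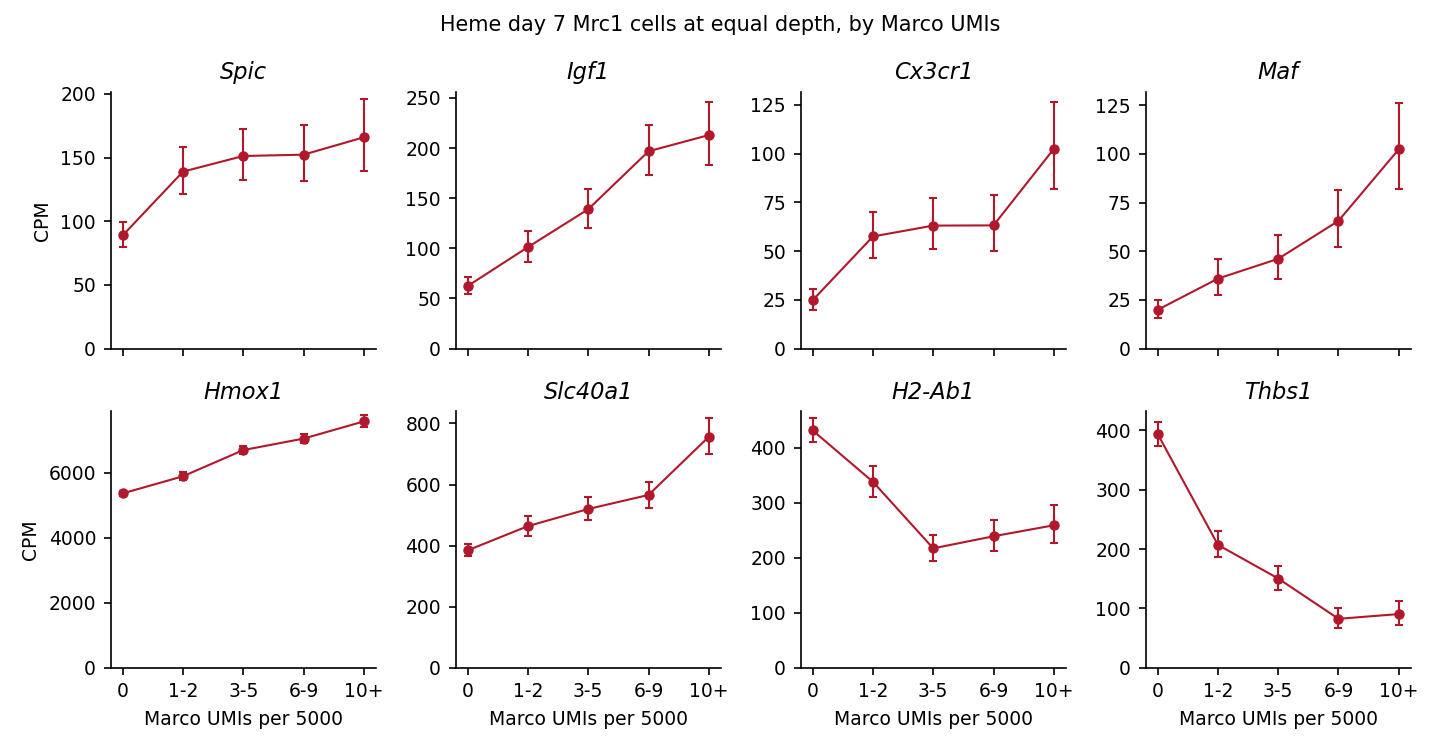
Level of 8 genes in CPM with exact 95% Poisson intervals in day 7 heme cells with Mrc1, thinned to 5000 UMIs, by the number of Marco UMIs per 5000 (734, 334, 295, 247 and 170 cells). Igf1 goes from 62.4 to 213 CPM and Thbs1 from 394 to 90.6 CPM between the first and the last bin.

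How members of day 7 varied among themselves was read from thinned cells. In 1045 members thinned to 5000 UMIs, the ratio of variance to mean, which is 1 for pure counting noise, had a median of 1.06 over 3576 genes. It was 2 or more for 90 genes, a limit set for description, and the genes between 1 and 2 are not called uniform. The 15 highest were Mt3 (55.4), Hbb-bs (25.3), Cstdc4 (21.4), Fth1 (19.6), Hist1h2ap, Mmp12, Cd74, Ccl17, Ccl6, Ccl4, Spp1, Lyz2, Ngp, Ftl1 and Prdx1. At the same relative spread the ratio is larger for an abundant transcript, so the order is not one of relative spread. Mean UMIs per thinned cell were 332 for Fth1, 116 for Ftl1, 59.1 for Lyz2 and 29.8 for Prdx1, against 0.414 for Mt3. Mt3, a metallothionein gene, had a UMI in 9.57% of the thinned cells, and 1 of 1051 cells carried 23.7% of its UMIs. For the globin gene Hbb-bs, 1 cell carried 42.2% of the UMIs.

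Members were also split by Spic. A thinned cell held a mean of 0.784 Spic UMIs, so a cell without one is not shown to lack the transcript, and nothing is read from how few genes passed. Thinned members with a Spic UMI (523) and without (522) were set side by side over 7975 genes. Beyond 2-fold, 0 genes were higher and 1 lower with Spic (Mt3, 32.5 against 133 CPM), and beyond 1.5-fold 1 was higher (Il1b, 113 against 53.3 CPM) and 3 lower. Hmox1 stood at 6760 and 6605 CPM and Slc40a1 at 564 and 561 CPM in these sets, and Igf1 at 166 and 148 CPM. With members defined by 2 or more Marco UMIs, 9 genes in place of 4 passed 1.5-fold.

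Many members carried transcripts of cycling cells. Thinned to 5000 UMIs, 5 or more UMIs of the 24 cell cycle genes were found in 67.9% of the day 4, 85.0% of the day 5 and 60.4% of the day 7 members (57.3% to 63.4%). Among Marco-negative Csf1r cells of day 7 this share was 51.2% (47.4% to 54.9%), and among control Mrc1 cells 65.3% (61.8% to 68.6%). At least 1 UMI of Mki67 or Top2a was found in 53.6%, 61.25% and 43.6% of the members on days 4, 5 and 7. On day 7 the interval was 40.6% to 46.7%, beside 35.1% of the Marco-negative cells and 39.4% (35.9% to 42.9%) of the control Mrc1 cells. The order of members and control cells thus depended on the genes used.

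Neutrophil transcripts were also present. At least 1 UMI of the granule genes Ngp, Camp or Ltf was found in 80.3% of the thinned day 7 members, 82.9% of the Marco-negative cells and 48.8% of the control Mrc1 cells, and 5 or more in 3.25% of the members. Ngp stood at 202 CPM in the members of day 7, at 58.4 CPM in the control Mrc1 cells and at 310 CPM in heme cells of day 0. Of 18 neutrophil genes, 5 of 17 compared were called higher than in control Mrc1 cells (Ngp, Ltf, Csf3r, Lcn2 and Mpo), and the list summed to 4462 CPM in the members, 2777 CPM in the control cells and 5944 CPM in the Marco-negative cells. How much of this is free RNA of the pool was not tested. Of the lymphoid list, 8 of 12 genes had a UMI (Cd3e, Cd3g, Ms4a1 and Gzma had none) and 1 reached 20 CPM, the interleukin 7 receptor gene Il7r at 50.8 CPM in the members, 123 CPM in the Marco-negative cells and 49.5 CPM in the control cells. The list summed to 54.3, 128 and 52.5 CPM in these groups. All 12 genes of the erythroid and megakaryocyte list had UMIs in the members, and they summed to 810, 982 and 704 CPM. Of these, 3 reached 20 CPM in the members, the platelet factor 4 gene Pf4, which macrophages can also express, at 676 CPM and the globin genes Hbb-bs at 53.4 and Hba-a1 at 20.8 CPM. None of the 11 basophil and mast cell genes reached 20 CPM, although 2 of the 6 compared (Mcpt8 and Cpa3) were called higher than in control Mrc1 cells.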

How the data were processed

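The raw UMI counts per gene and barcode were deposited by the authors as 1 matrix per library, made with Cell Ranger (5.0.0 in the matrix header, 4.0.0 in the submitters' processing notes) on GRCm38.p6, with empty droplets removed. Culture days were the deposited hashtag calls, text labels that the authors made with HTODemux of Seurat 3.2.3. No doublet caller was run. Of the heme barcodes, 1996 held hashtags of more than 1 day and were left out, and a further 521 doublets within 1 hashtag (3.68% of the heme singlets) were implied by that number. Groups follow the sample titles and hold 1 library each, so no p-value was computed.

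UMIs were summed over the cells of a group and divided by the summed gene UMIs (CPM). Intervals are exact at 95% (Poisson for sums and their ratios, Clopper-Pearson for shares), and a count of 0 was taken to allow 3 counts. Shares of cells with a transcript were compared after thinning each cell to 5000 UMIs and leaving out shallower cells. The genes named were the 5 markers, members of 27 gene lists, and per comparison and direction the 12 genes whose interval bound lay farthest from equality, with 50 or more UMIs in both sums, 50 CPM in the higher group, and no mitochondrial, ribosomal protein, Gm or Rik names. For variation, the 15 genes with the highest ratio at a mean of 0.2 or more UMIs were named. The members and lists were chosen with earlier results of these data known. 1 item is not reported here. The scripts were tested on simulated data. Of 26124 gene IDs, 26013 were found in GENCODE M21. Alternatives changed the thresholds of the rule, cell filters, depth, scaling and the control cells. Python 3.11.15, numpy 2.4.6, scipy 1.17.1 and pandas 2.3.3 were used, with R 4.3.3, edgeR 4.0.16 and DESeq2 1.42.0 for scaling factors only.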

Additional observations from a re-analysis of the deposited data

Results flagged for a closer look

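Barcodes that carried hashtags of 2 days entered no comparison, and some of them met the remaining conditions of the rule. In the heme library 25.7% of barcodes with 2 hashtags of which 1 was of day 7 did so (213 of 829, 22.8% to 28.8%), against 0.338% in the control library (2 of 591). Of heme barcodes with 2 hashtags and none of day 7, 2.14% did so (24 of 1122, 1.38% to 3.17%), against 0 of 653 in the control library, which allows up to 0.459%. Among heme barcodes without a hashtag 0 of 907 met these conditions, which allows up to 0.331%. Both shares were singled out because they lie above the control library in data that no comparison used, and their cause was not tested.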

How the results depend on the processing

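The share of Marco Mrc1 macrophages on days 4, 5 and 7 (0.934%, 3.00% and 37.9%) moved to 1.57%, 4.69% and 40.8% with 2 or more Marco UMIs, to 0.467%, 1.58% and 34.1% with 5 or more, to 0.484%, 1.21% and 34.0% with at most 5000 genes and under 30% ribosomal UMIs, and to 0.156%, 0.469% and 24.1% after thinning to 5000 UMIs. It was 36.0% on day 7 without the 5% of members with most UMIs. The order of the days was kept under each of these. Of the genes called between day 7 and day 4, the 51 higher became 85 with the mean over cells, 101 and 32 with 2 and 5 Marco UMIs, 16 under the gene and ribosomal limits and 3 after thinning. The 104 lower became 189 with no minimum of UMIs, 37 under those limits, 21 after thinning and 66 without the deepest members, and the 42 calls among listed genes became 18 under the limits and 8 after thinning. Thinning also left 17 higher and 40 lower genes against the Marco-negative cells (41 and 138 before) and 316 and 201 against control Mrc1 cells (708 and 422 before). Thinning changed both the UMIs per cell and the members (609 on day 7 and 4 on day 4 in place of 1051 and 28), and which of these moved the counts was not tested. With 2 Marco UMIs the Spic split gave 9 genes in place of 4.

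The 5 marker genes and the called genes that were listed or named were recomputed under each alternative, 57 for day 7 against day 4, 67 against the Marco-negative and 165 against the control Mrc1 cells. Of these 19, 0 and 0 changed sign, among the 19 Mrc1, which was not called, and the cause was not tested. Under the gene and ribosomal limits the MHC class II median turned to 0.77 on the log2 scale, H2-Aa to 1.62, H2-Ab1 to 0.73, H2-DMb2 to 1.48, H2-Eb1 to 0.66, Ccl17 to 0.69, Ccl5 to 0.97, Csta2 to 0.73, Gbp2 to 1.76, Il4i1 to 0.22 and Mt3 to 2.61. After thinning the MHC class II median turned to 0.68, H2-Aa to 0.98, H2-Ab1 to 0.38, H2-Eb1 to 2.51, Ccl17 to 0.24, Ccl3 to 0.17, Ccl4 to 0.65, Mt3 to 1.39, Pf4 to -0.74, Saa3 to 0.26 and Socs2 to 0.50. Without the 5% of members with most UMIs Ccl5 turned to 0.55, Ccr7 to 1.10, Cd83 to 1.39, Fscn1 to 0.32 and Mt3 to 0.44, and with 2 Mrc1 UMIs Mt3 turned to 0.83. Leaving out the day 4 member with most Ccr7 UMIs, an alternative chosen after seeing the data, moved the dendritic cell median from -3.17 to -1.12 and reversed no called gene. List medians changed sign under at least 1 alternative for 13 of 25, 3 of 26 and 6 of 26 lists in the 3 comparisons, with values of under 1 in size before the change except for MHC class II. Day 4 rests on 28 cells near the Marco threshold. No paired analysis was possible because each group is 1 library.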

Other observations

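In the control library 22 cells of days 4, 5 and 7 met the same rule. Their summed level of Hmox1 was 245 CPM, of Igf1 49.9 CPM and of Arg1 167 CPM, and Spic and Slc40a1 had 0 UMIs, which allows up to 7.49 CPM. The 8 heme cells of day 3 that met it, sampled before the addition, held Hmox1 at 160 CPM and 0 UMIs of Spic and Igf1, which allows up to 9.43 CPM. Day 7 members, for comparison, held Hmox1 at 6418 CPM, Spic at 140 CPM and Slc40a1 at 524 CPM. Of all gene UMIs of the day 7 heme culture, its members held 44.3%. They held 95.7% of the UMIs of Marco, which the rule sets, 74.8% of Igf1, 67.1% of Spic, 55.4% of Slc40a1, 55.1% of Hmox1 and 50.2% of Fth1.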
